A study of Mus musculus with 6 samples.

Results

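Transcripts of 7 receptors that early lymphoid cells use to sense cytokines and growth factors were followed in mouse pro-B cells. They were Il7r, Il2ra, Csf2rb, Kit, Flt3, Crlf2 and Il4ra. Cells given tamoxifen to delete Foxo1 were compared with untreated cells. The genes were named individually, and each was matched to the microarray by a probe set carrying that symbol alone. All 7 were found, with 1 probe set each, among 19937 genes measured. The cells were a v-Abl transformed pro-B line of genotype Foxo1f/f; ERCre on strain C57/BL6, in which both Foxo1 alleles are flanked by loxP sites and an oestrogen receptor fusion of Cre recombinase becomes active with tamoxifen. The 3 tamoxifen samples had received 1 µM tamoxifen for 2 days, and the 3 untreated samples had the same genotype and no treatment. Tamoxifen-treated cells without floxed alleles were not analysed here, so loss of Foxo1, active Cre and tamoxifen itself cannot be told apart. Separate cultures are not mentioned in the labels. The p-values therefore reflect the spread of these 6 samples alone, and that spread may be technical.

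These receptors carry survival and growth signals from the bone marrow into lymphoid precursors. Il7r, Crlf2, Il2ra, Il4ra and Csf2rb encode chains of cytokine receptors that work through JAK kinases and STAT factors, whereas Kit and Flt3 encode receptor tyrosine kinases for stem cell factor and FLT3 ligand. In mouse B cell development Kit and Flt3 mark early progenitors, Il7r is needed by pro-B cells, and Il2ra, which encodes CD25, appears at the pre-B stage. Foxo1 is known to promote Il7r expression in early B cells, and the v-Abl kinase activates JAK and STAT proteins without cytokine. The comparison asks which of the receptor transcripts differ between samples given tamoxifen, which targets Foxo1 in this line, and untreated samples.

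Promoter windows from RefSeq (GRCm38.p6, from 250 bases before to 50 after the gene start) were matched by symbol for 6 of the 7 receptors, and for Csf2rb2, the close paralog of Csf2rb. The 3 printed here belong to the receptor with the best known link to Foxo1 (Il7r), to the receptor with the lowest p-value (Il2ra) and to the beta chain paralog. Capitals mark matches, on either strand, to a forkhead motif GTAAACA, a STAT motif TTCNNNGAA, an Ets motif GAGGAAG or a Runx motif TGTGGT.
Il7r, chr15:9529827-9530126, minus strand: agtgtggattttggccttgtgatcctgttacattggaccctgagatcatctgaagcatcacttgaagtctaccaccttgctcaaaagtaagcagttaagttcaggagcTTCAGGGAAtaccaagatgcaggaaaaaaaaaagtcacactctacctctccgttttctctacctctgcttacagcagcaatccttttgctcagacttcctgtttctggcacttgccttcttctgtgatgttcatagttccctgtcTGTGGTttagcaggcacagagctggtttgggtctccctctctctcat
Il2ra, chr2:11642542-11642841, plus strand: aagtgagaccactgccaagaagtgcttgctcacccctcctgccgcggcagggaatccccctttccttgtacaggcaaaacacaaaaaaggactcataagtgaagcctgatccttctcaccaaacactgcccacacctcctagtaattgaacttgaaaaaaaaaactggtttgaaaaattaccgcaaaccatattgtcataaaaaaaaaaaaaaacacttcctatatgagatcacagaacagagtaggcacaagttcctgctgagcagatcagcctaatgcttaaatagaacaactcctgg
Csf2rb2, chr15:78305672-78305971, minus strand: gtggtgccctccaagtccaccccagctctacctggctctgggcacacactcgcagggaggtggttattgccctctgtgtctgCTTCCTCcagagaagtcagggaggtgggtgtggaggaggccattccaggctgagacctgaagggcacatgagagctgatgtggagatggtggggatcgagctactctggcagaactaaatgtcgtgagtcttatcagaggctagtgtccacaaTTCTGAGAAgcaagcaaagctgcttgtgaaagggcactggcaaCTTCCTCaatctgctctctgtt
The Il7r window holds the STAT match TTCAGGGAA, whose first base lies 142 bases before the gene start, and a Runx match just after the start. The Csf2rb2 window holds the STAT match TTCTGAGAA, which begins 15 bases before the start, and a pair of Ets matches. The Il2ra window holds none of the 4 motifs, and neither do those of Flt3 and Il4ra, while those of Kit and Crlf2 hold an Ets match and that of Crlf2 a Runx match as well. The forkhead motif is in none of these windows and in 3.65% of all 32851 promoter windows. The STAT motif is in 8.30%, the Ets motif in 13.6% and the Runx motif in 16.8% of them. No motifs overlap within the printed windows, and a match is only a run of letters in this window. Only these letter patterns were searched, so a window without a match may still hold a related form of a motif.

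The arrays were alike in scale, with medians of 100.9 to 109.1, and correlations of normalised values within a group were 0.986 to 0.994. Foxo1 intensity was 116, 151 and 134 in the tamoxifen samples, against 806, 624 and 512 in the untreated samples, a log2 difference of -2.13 ± 0.15 (SE) with a limma adjusted p = 0.0178. All tamoxifen values lay below all untreated values. The Foxo1 call was lost with median scaling (limma adjusted p = 0.050025), with the replicate number as a block (0.0936), and with any single array left out other than untreated sample 1 (0.0843 to 0.156), while the log2 difference stayed at -1.83 or below in every alternative run. No source used here says whether the Foxo1 probe set falls within the floxed segment. Of 12 measured pro-B cell markers, 10 had mean intensities no lower than the median of probe set means. Cd24a was the brightest, at 5065 ± 353 in tamoxifen and 4724 ± 329 in untreated samples, and Rag2 the dimmest, at 31.8 ± 5.203 and 46.3 ± 20.8 in the same order (SD, n = 3 each). Summed over the markers, intensity ran from 21696 to 23912 in tamoxifen and from 19138 to 22401 in untreated samples. Limma called 0 of the 12 (Cd79b and Ebf1 where probe sets were averaged per gene), and at an unadjusted p under 0.05, a level that 2.96% of genes reached upward and 2.19% downward, 5 were higher and 2 lower in tamoxifen samples. The lowest p-values belonged to Cd79b, a chain of the B cell receptor (log2 difference 0.52), Ebf1, a factor that specifies the B lineage (-0.51), and Dntt, which adds bases at antigen receptor joints (-1.26).

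None of the 7 receptors passed the test between tamoxifen and untreated samples. The main readings were a higher Il2ra and Csf2rb, with log2 differences between -0.11 and 0.08 for the other receptors, of which Il7r varied widely among untreated samples and Kit was dim in both groups. With limma on log2(value + 16) after quantile normalisation, and Benjamini-Hochberg adjustment over 34760 probe sets at a threshold of 0.05, 0 of 7 receptors were called, where 0.0575% of all probe sets were. At an unadjusted p under 0.05, 2 of 7 receptors differed, both higher in tamoxifen samples. Over all probe sets 5.11% reached that level in either direction and 2.97% on the higher side. Fold changes below are on the log2(value + 16) scale, where changes of dim genes come out too small, and intensities are the deposited linear values. In bulk RNA a smaller number of cells of a type and less RNA per cell cannot be told apart.

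**Figure D1:**
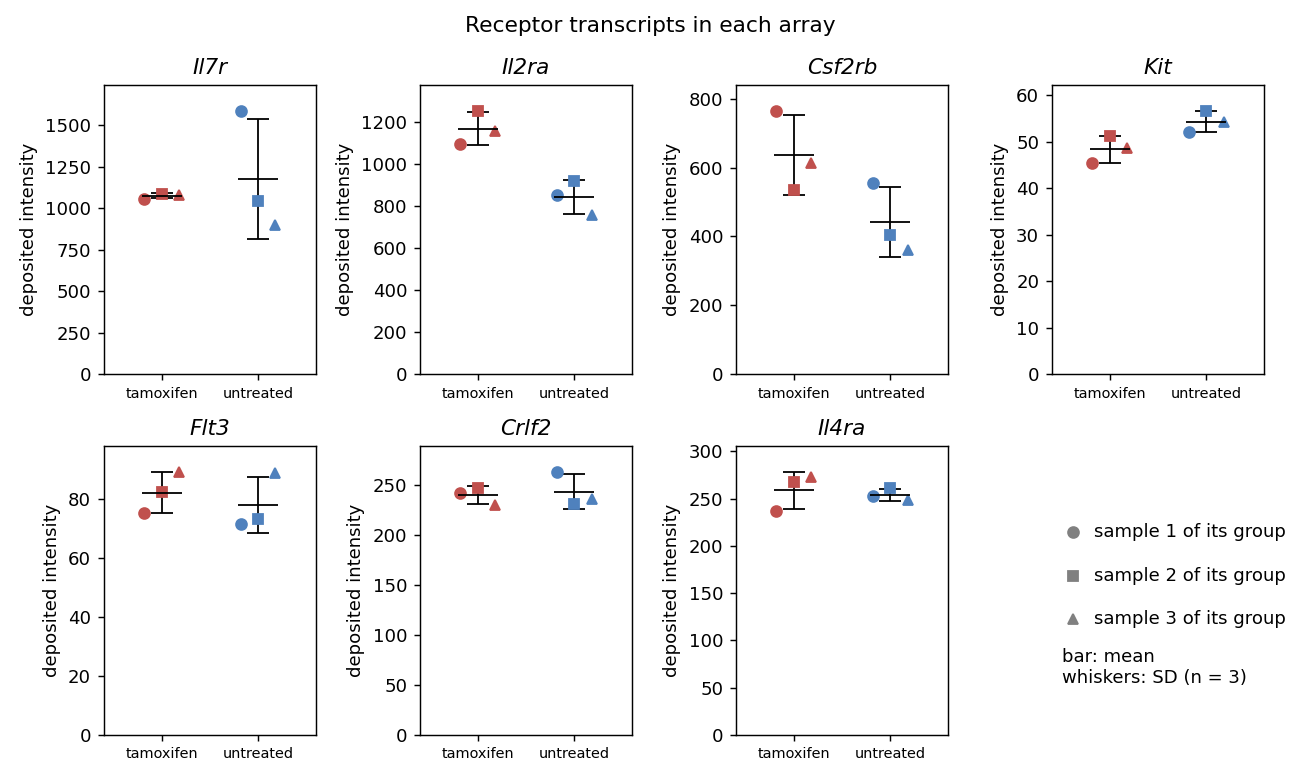
Deposited intensity (linear, from 0) of the 7 receptor transcripts in each array, with tamoxifen samples at the left and untreated samples at the right of each panel. Bars are means and whiskers SD (n = 3), and symbols give the sample number. Il2ra is higher in all 3 tamoxifen samples, and a single untreated sample at 1586 sets the spread of Il7r.

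Il7r encodes the alpha chain that binds interleukin-7. Its intensity was 1059, 1088 and 1083 in tamoxifen samples 1, 2 and 3, against 1586, 1042 and 899 in untreated samples 1, 2 and 3. The tamoxifen values all lay inside the untreated range, and untreated sample 1 stood well above every other array. Means were 1076 ± 15.7 in tamoxifen and 1176 ± 362 in untreated samples (SD, n = 3 each). The log2 difference was -0.09 ± 0.18 (SE), with a 95% interval of -0.53 to 0.34 and a limma adjusted p of 0.9995. That interval runs from 0.692-fold to 1.27-fold, so neither a moderate fall nor a small rise could be told from no difference. Without untreated sample 1 the difference was 0.12 ± 0.08 (SE), of the opposite sign, with a limma adjusted p = 0.944. Untreated sample 1 also had the highest Foxo1 intensity of the 6 arrays, as it did for Dntt, Rag1 and Rag2. Whether the high Il7r value is linked to any of these was not tested.

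Crlf2 encodes the chain that pairs with the Il7r product to form the receptor for thymic stromal lymphopoietin (TSLP). Its intensity was 242, 248 and 230 in tamoxifen samples, against 263, 231 and 236 in untreated samples. The groups overlapped almost completely. Means were 240 ± 8.77 and 243 ± 17.3 in the same order (SD, n = 3 each), and the log2 difference of -0.03 ± 0.07 (SE) had a 95% interval of -0.21 to 0.15, or 0.866-fold to 1.11-fold. Its limma adjusted p was 0.9995. Without untreated sample 1 the value was 0.02.

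Il2ra encodes CD25, the alpha chain that gives the interleukin-2 receptor its high affinity. Intensity was 1096, 1251 and 1159 in tamoxifen samples, against 851, 917 and 756 in untreated samples. Every tamoxifen value exceeded every untreated value, both as deposited and after normalisation. Means were 1168 ± 77.9 in tamoxifen and 841 ± 80.6 in untreated samples (SD, n = 3 each). The log2 difference was 0.46 ± 0.10 (SE), which is 1.37-fold with a 95% interval of 1.17-fold to 1.61-fold. The unadjusted limma p was 0.00256 and the adjusted p 0.385, so Il2ra did not pass over all probe sets. With any 1 array left out the log2 difference stayed between 0.39 and 0.55, with a limma adjusted p between 0.237 and 0.963.

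Csf2rb encodes the common beta chain shared by the receptors for interleukin-3, interleukin-5 and GM-CSF. Intensity was 764, 534 and 613 in tamoxifen samples, against 555, 405 and 362 in untreated samples. As deposited, tamoxifen sample 2 lay just below untreated sample 1, whereas after normalisation the groups no longer overlapped, at 9.14 against 9.13 on the log2 scale for that pair of arrays. Means were 637 ± 117 in tamoxifen and 441 ± 101 in untreated samples (SD, n = 3 each). The log2 difference of 0.51 ± 0.16 (SE) is 1.42-fold, with a 95% interval of 1.09-fold to 1.85-fold, an unadjusted limma p of 0.0159 and an adjusted p of 0.744. The unadjusted p was above 0.05 without tamoxifen sample 1 (0.0519), without untreated sample 2 (0.0541) or without untreated sample 3 (0.0539). Within each group, sample 1 had the highest Csf2rb intensity.

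Csf2rb2, the mouse paralog that serves interleukin-3 alone, had intensities of 271, 236 and 234 in tamoxifen samples, against 247, 161 and 156 in untreated samples. Here too untreated sample 1 reached into the tamoxifen range, and the log2 difference of 0.39 ± 0.17 (SE) had a limma adjusted p = 0.99. The 2 beta chains are close in sequence and may share signal on an array, so their values are uncertain as separate measurements. Whether cross-hybridisation contributes was not tested.

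Il4ra encodes the chain common to the receptors for interleukin-4 and interleukin-13. Intensity was 237, 267 and 272 in tamoxifen samples, against 253, 261 and 248 in untreated samples. The untreated values lay inside the tamoxifen range. Means were 259 ± 19.4 and 254 ± 6.26 in the same order (SD, n = 3 each), and the log2 difference of 0.01 ± 0.08 (SE) had a 95% interval of -0.18 to 0.20, or 0.883-fold to 1.15-fold, with a limma adjusted p of 0.9995. Its sign depended on single arrays, with -0.02 without tamoxifen sample 2 and -0.03 without tamoxifen sample 3.

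Kit, the receptor for stem cell factor, was dim. Intensity was 45.4, 51.2 and 48.7 in tamoxifen samples, against 52.1, 56.6 and 54.3 in untreated samples, where the lower quartiles of the arrays were 43.3 to 47.3. All tamoxifen values lay below all untreated values, by less than 1 intensity unit between the nearest arrays. Means were 48.4 ± 2.93 and 54.3 ± 2.25 in the same order (SD, n = 3 each), and the log2 difference of -0.11 ± 0.06 (SE) had a 95% interval of -0.26 to 0.03 and a limma adjusted p of 0.9995. No detection call came with the values, so whether Kit was above background in these cells is not known.

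Flt3, the receptor for FLT3 ligand, was also below the array medians. Intensity was 75.1, 82.5 and 89.1 in tamoxifen samples, against 71.6, 73.3 and 88.9 in untreated samples. The groups overlapped, and sample 3 was highest in both. Means were 82.2 ± 6.98 and 77.9 ± 9.51 in the same order (SD, n = 3 each), with a log2 difference of 0.08 ± 0.08 (SE), a 95% interval of -0.10 to 0.27 and a limma adjusted p of 0.9995.

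Across the receptors, normalised values did not overlap between groups for 3 of 7, of which Il2ra and Csf2rb were higher and Kit lower in tamoxifen samples. Groups stayed apart for 9.89% of all probe sets, 5.03% higher and 4.87% lower in tamoxifen samples. As deposited, 2 of 7 receptors did not overlap, against 8.51% of all probe sets. The 95% intervals excluded 0 for 2 of 7 receptors and held 0 for 5, without adjustment for the number of receptors. This count restates that at an unadjusted limma p under 0.05, a level that 5.11% of all probe sets reached. The median log2 difference of the 7 was 0.01, against -0.01 over all genes. Whether the receptors' differences vary from one receptor to another was not tested.

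**Figure D2:**
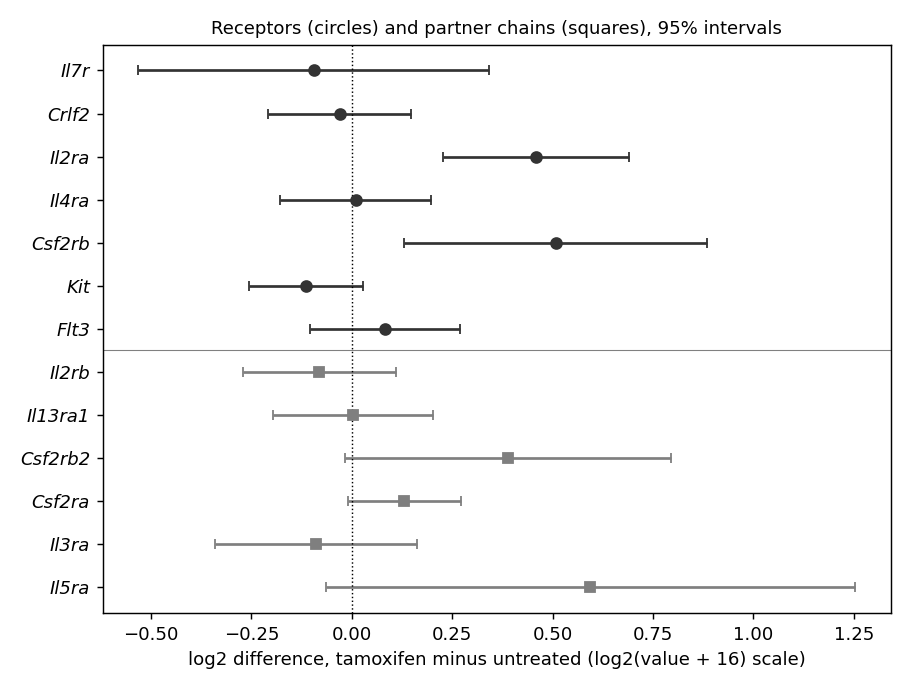
Log2 difference (tamoxifen minus untreated, log2(value + 16) scale) with 95% intervals for the 7 receptors (circles) and for partner chains of theirs (squares). Only the intervals of Il2ra and Csf2rb lie above 0, and the interval of Il7r, from -0.53 to 0.34, is wider than those of Crlf2, Il4ra, Kit and Flt3.

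Partner and related receptor chains gave no call either. Limma called 0 of 22 measured, and 0 had an unadjusted p under 0.05, a level that 5.15% of genes reached. In this list 17 were positive and the median log2 difference was 0.04. Over all genes 8879 of 19937 were positive, the count to set beside this list and those below. The alpha chains that join Csf2rb had differences of either sign. Csf2ra, the GM-CSF alpha chain, measured 134 ± 6.25 in tamoxifen and 122 ± 5.84 in untreated samples (SD, n = 3 each), a log2 difference of 0.13, and Il3ra, the interleukin-3 alpha chain, measured 320 ± 30.2 and 335 ± 9.63, a difference of -0.09. Il5ra, the interleukin-5 alpha chain, was added after its values were seen. Its intensity was 142, 249 and 225 in tamoxifen samples, against 83.4, 160 and 158 in untreated samples, a log2 difference of 0.59 ± 0.27 (SE) with a 95% interval of -0.07 to 1.25 and a limma adjusted p of 0.9995. In contrast to Csf2rb, sample 1 was the lowest of its group for Il5ra in both groups. Il2rb, a signalling chain that joins Il2ra in the interleukin-2 receptor, was dim at 39.4 ± 2.16 in tamoxifen and 43.0 ± 3.29 in untreated samples (SD, n = 3 each). Il13ra1, which joins Il4ra, was dim as well at 39.4 ± 3.69 and 39.8 ± 4.70 in the same order. Il10rb, a chain of the interleukin-10 receptor family, had a log2 difference of 0.17 ± 0.08 (SE). The common gamma chain gene Il2rg, which completes the interleukin-2, interleukin-4 and interleukin-7 receptors, was not analysed here.

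Ligands of the receptors, listed together with Il15, whose receptor shares Il2rb but not Il2ra, were mostly dim, and none of the 11 passed the test. Mean intensities ran from 16.9 to 145 in tamoxifen and from 15.98 to 151 in untreated samples, and 2 of 11 reached the median of probe set means. Those were Flt3l, the ligand of Flt3, with 145 ± 15.6 in tamoxifen and 125 ± 9.25 in untreated samples (SD, n = 3 each), and Il13, with 142 ± 13.8 and 151 ± 9.45 in the same order. Flt3l had a log2 difference of 0.20 ± 0.08 (SE), an unadjusted limma p of 0.0458 and overlapping groups. Il7 and Kitl, which encode interleukin-7 and stem cell factor, had mean intensities of 31.5 and 18.6 in tamoxifen and 31.6 and 18.8 in untreated samples. The median log2 difference of the ligands was 0.00.

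Among the JAK kinases and STAT factors that act beneath these receptors, 0 of 9 passed the test, with 7 positive and a median log2 difference of 0.16. At an unadjusted limma p under 0.05, 1 was higher and 1 lower in tamoxifen samples, where 2.96% and 2.19% of genes were. Jak1, the kinase bound to the Il7r and Il4ra products, measured 2459 ± 186 in tamoxifen and 2409 ± 85.5 in untreated samples (SD, n = 3 each), a log2 difference of 0.03. Jak2, the kinase bound to the common beta chain, measured 478 ± 8.71 and 410 ± 49.0 in the same order, a difference of 0.20 ± 0.11 (SE). The paralogs Stat5a and Stat5b, which carry the interleukin-7 signal, had differences of opposite sign. Stat5b had 344, 222 and 249 in tamoxifen samples, against 226, 203 and 174 in untreated samples, a log2 difference of 0.37 ± 0.15 (SE) with an unadjusted limma p of 0.0462. Stat5a had 268, 241 and 290 in tamoxifen samples, against 302, 288 and 307 in untreated samples, a difference of -0.18 ± 0.09 (SE) with an unadjusted limma p of 0.0869. Groups overlapped for both genes, and the limma adjusted p was 0.958 for Stat5b and 0.9995 for Stat5a. Stat6, the factor of interleukin-4 signalling, had a log2 difference of 0.18 ± 0.09 (SE), and Stat4, a factor of interleukin-12 signalling, -0.33 ± 0.13 (SE). A probe set for Jak3 carries a second gene symbol and was left unnamed.

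Receptor adaptors and kinases had 0 of 16 past the test, 10 positive, and a median log2 difference of 0.02. At an unadjusted limma p under 0.05, 2 were higher in tamoxifen samples and 0 lower, where 2.96% and 2.19% of genes were. Pik3r1, the regulatory subunit of PI3 kinase, had 1082, 999 and 1005 in tamoxifen samples, against 812, 921 and 778 in untreated samples, a log2 difference of 0.28 ± 0.07 (SE) with a limma adjusted p = 0.488. Its groups did not overlap. Vav1, a guanine nucleotide exchange factor of blood cells, had a difference of 0.39 ± 0.15 (SE), and Btk, a B cell tyrosine kinase, 0.18 ± 0.09 (SE).

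Among genes listed as inhibitors of receptor signalling, 0 of 22 passed limma over all probe sets. Groups did not overlap for 6 of 22, all higher in tamoxifen samples, where 1108 of 19937 genes were higher without overlap. Of the 22 measured, 6 had an unadjusted limma p under 0.05, all higher in tamoxifen samples, where 2.96% of genes met that rule in that direction. In the list 16 were positive and the median log2 difference was 0.11. Ptpn6, the phosphatase SHP-1 that restrains JAK and antigen receptor signals, had 1907, 1556 and 1700 in tamoxifen samples, against 1267, 1156 and 1095 in untreated samples, a log2 difference of 0.53 ± 0.07 (SE) with a limma adjusted p = 0.132. Cish, a STAT5-induced feedback inhibitor, had 363, 269 and 259 in tamoxifen samples, against 215, 156 and 148 in untreated samples, a log2 difference of 0.71 ± 0.17 (SE) with a limma adjusted p = 0.482. Neither gene's groups overlapped, and in both genes sample 1 was highest within its group, as for Csf2rb. Ptprj is a receptor-type phosphatase that, like Ptprc in the same list, can also promote antigen receptor signals. Its intensity was 958, 985 and 1064 in tamoxifen samples, against 280, 587 and 532 in untreated samples. The log2 difference was 1.12 ± 0.27 (SE) with a limma adjusted p = 0.512.

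Of the outputs of cytokine signalling, 0 of 14 passed the test. At an unadjusted p under 0.05, 3 were higher and 3 lower in tamoxifen samples, where 2.96% and 2.19% of genes were, and the median log2 difference was 0.06. Pim2, a survival kinase induced by cytokines, had 186, 181 and 190 in tamoxifen samples, against 253, 314 and 260 in untreated samples, a log2 difference of -0.54 ± 0.08 (SE) with a limma adjusted p = 0.185. Socs2, a feedback inhibitor that also stands in the list of inhibitors, as Cish does, had 2248, 1949 and 1894 in tamoxifen samples, against 1583, 1802 and 1564 in untreated samples, a difference of 0.29 ± 0.07 (SE). Groups did not overlap for either gene.

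**Figure D3:**
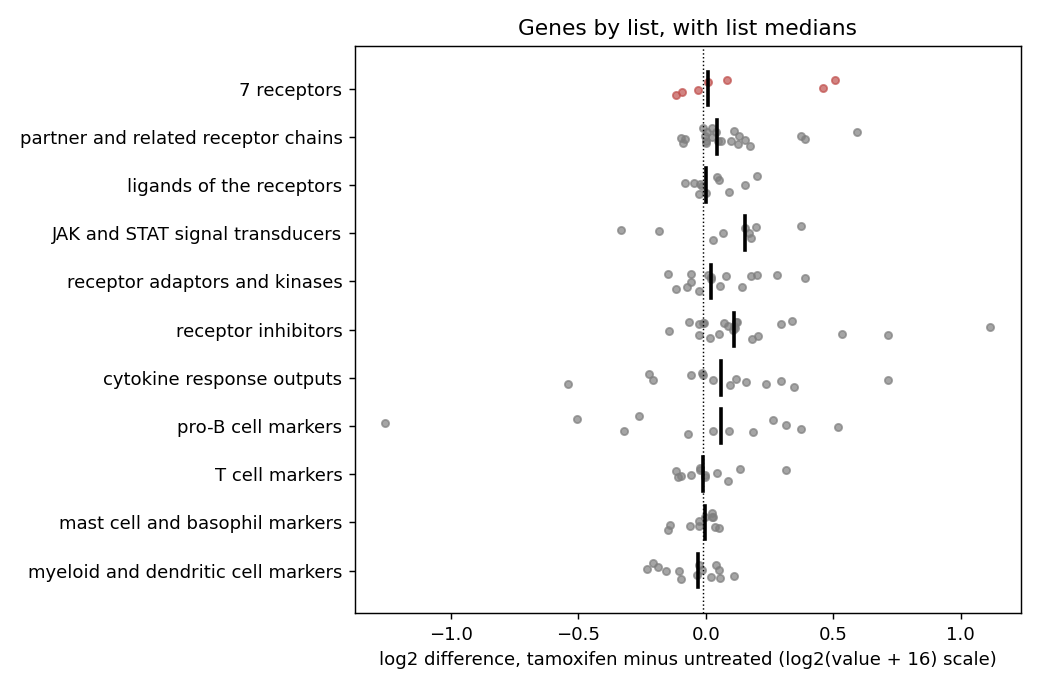
Log2 difference (tamoxifen minus untreated, log2(value + 16) scale) of every measured gene of each list as points, spread vertically for legibility, with the list median as a black bar and the median of all genes as a dotted line at -0.01. List medians lie between -0.03 and 0.16, and 0 points passed the test over all probe sets.

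Markers of other blood cells that carry these receptors were mostly below the median of probe means and gave no call. At an unadjusted limma p under 0.05 there were 0 T cell, 0 mast cell and 2 myeloid markers, the myeloid pair lower in tamoxifen samples, where 2.19% of genes were lower and 5.15% reached that level in either direction. T cell markers, relevant to Il2ra, had 3 of 12 at or above that median, with summed intensity from 1008 to 1202 in tamoxifen and from 1026 to 1182 in untreated samples. Lat was the brightest of them, at 262 ± 34.3 and 206 ± 28.2 in the same order (SD, n = 3 each), and Trat1 the dimmest, at 15.1 and 15.5, while Cd247 and Cd3e had log2 differences of -0.10 and -0.02, and Cd3d and Cd3g were at 28.9 and 28.6 in tamoxifen and 29.4 and 28.7 in untreated samples. Mast cell and basophil markers, relevant to Kit and Csf2rb, had 1 of 11 at or above the median, with sums from 566 to 645 in tamoxifen and from 573 to 699 in untreated samples. Gata2 was the brightest, at 128 and 136, and Fcer1a the dimmest, at 19.4 and 18.2. Myeloid and dendritic cell markers, relevant to Csf2rb and Flt3, had 2 of 14 at or above the median, with sums from 1023 to 1042 in tamoxifen and from 1002 to 1140 in untreated samples. Cd68 and Siglech were those, at 216 and 108 in tamoxifen and 213 and 106 in untreated samples, and Clec9a the dimmest in tamoxifen samples, at 22.3 against 29.2. For each of these lists the ranges of the sums overlapped between groups.

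The genes most like each receptor were sought by Pearson's r of normalised log2 values over the 6 arrays, among the 10610 or 10611 other genes whose mean reached the median of probe set means, and are given as a description. For Il7r they were Patl1 (0.996), Aspscr1 (0.992) and Mrtfb (0.990). For Il2ra they were Crybg1 (0.989), Supt20 (0.988) and Rbm45 (0.984), and for Csf2rb Clec16a (0.997), Git2 (0.996) and Heg1 (0.996). Log2 differences of these genes ran lower than that of the receptor for Il2ra, at 0.33, 0.13 and 0.18, and for Csf2rb, at 0.11, 0.11 and 0.50. Those nearest to Il7r had differences of -0.03, -0.04 and -0.06. For Kit the nearest were Mpzl2 (0.985), Hmgn3 (0.984) and Dcbld2 (0.968), and for Flt3 Parp3 (0.983), Chd8 (0.979) and Cacng8 (0.973). The Kit neighbours had log2 differences of -0.61, -0.34 and -0.50, larger falls than the -0.11 of Kit. Znhit2 (0.991), Ssh3 (0.991) and Dlgap4 (0.971) were nearest to Crlf2. Rc3h2 (0.998), the probe set named Mir338 (0.990) and Chd9 (0.990) were nearest to Il4ra. All of these values come from the same 6 arrays, so they share whatever varied between the arrays. As the highest of 10610 or 10611 over 6 arrays, such r values can also arise by chance, and none was tested. The direction of a neighbour's difference follows in part from this choice by r.

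**Figure D4:**
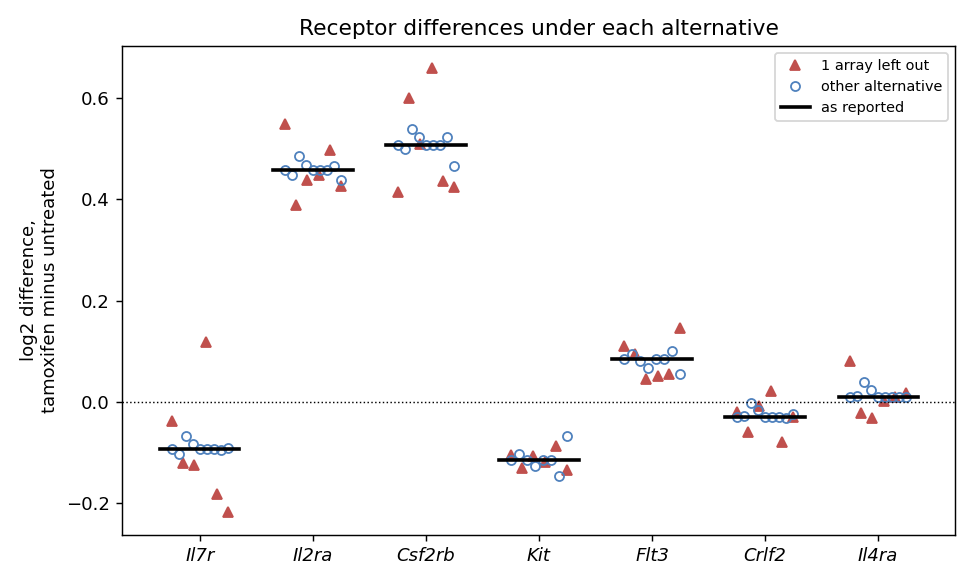
Log2 difference (tamoxifen minus untreated) of each receptor as reported (black bar), with 1 array left out (triangles) and under the other alternatives (open circles). Il2ra stays between 0.39 and 0.55 and Csf2rb between 0.42 and 0.66, while a triangle of Il7r, without untreated sample 1, lies above 0 at 0.12.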

How the data were processed

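Total RNA of 6 samples was hybridised to gene-level microarrays after TRIZOL extraction and conversion to biotinylated cRNA, per the labels' protocols. The deposited values are linear intensity values per probe set. The sources used here do not give the background correction, probe summary or array normalisation that the authors applied, nor batches or scan dates. The titles gave groups and sample numbers.

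Intensities were converted to log2(value + 16), quantile normalised and fitted with limma 3.58.1 (lmFit, then eBayes) under R 4.3.3. Tests were two-sided, and p-values were adjusted by Benjamini-Hochberg over 34760 probe sets. A platform table paired 21640 probe sets with 1 symbol and 1321 with several, and did not list 11799. The brightest probe set stood for a gene. The 7 receptors, the 10 lists of genes and the naming rule were chosen with earlier results of these data known. The rule named all 7 receptors, Foxo1, direct partner chains and the JAK and STAT genes of these receptors, and from each list those past the threshold or, where fewer than 3 passed, the 3 with the lowest p among genes at or above the median. Marker lists were also described by their brightest and dimmest genes. No set test was run. The number of arrays limits the precision.

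The fit was tested on simulated data in 10 runs, with 200 of 34760 probe sets altered in each run. It found 29.8% of the probe sets altered 1.5-fold and 67.3% of those altered 2-fold. These shares depend on the number altered, which is not known for the real data. Wrong calls averaged 4.9 in a run, and 94.7% of the intervals held the true difference. The reported differences of Il2ra (1.37-fold) and Csf2rb (1.42-fold) were smaller than either simulated size. A missing call for a receptor therefore does not show that its transcript was unchanged. The alternatives were a replicate block, each array left out, cyclic loess, median scaling, no further normalisation, bright probe sets only, an intensity trend with robust eBayes, averaged probe sets, and pseudocounts of 1 and 64. Figures were drawn with matplotlib 3.10.9.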

Additional observations from a re-analysis of the deposited data

How the results depend on the processing

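None of 103 receptor values under 15 alternatives passed the threshold, and 99 kept the reported sign. The 4 that did not were Il7r (0.12) and Crlf2 (0.0202) without untreated sample 1 and Il4ra without tamoxifen sample 2 (-0.0224) or 3 (-0.0325). With 1 array left out the log2 difference ran from -0.22 to 0.12 for Il7r, 0.39 to 0.55 for Il2ra, 0.42 to 0.66 for Csf2rb, -0.14 to -0.09 for Kit, 0.05 to 0.14 for Flt3, -0.0800 to 0.0202 for Crlf2 and -0.0325 to 0.0812 for Il4ra. Kit and Flt3 had no value among bright probe sets only. The number of receptors at an unadjusted p under 0.05 was 1 to 2 in those fits, and it was 1, Il2ra alone, without tamoxifen sample 1, untreated sample 2 or untreated sample 3. The number whose groups did not overlap ran from 2 to 4 over all alternatives. It was 4 only without tamoxifen sample 1 or untreated sample 3, and with an array fewer, groups separate more readily. The share over all probe sets was 9.89% in the reported fit and is not given for the alternatives.

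With the replicate number as a block, Foxo1 stayed at -2.13 with a limma adjusted p of 0.0936 and thus lost its call, as it did with median scaling (-2.12, adjusted p = 0.050025). The block called 0 probe sets, against 20 without it, and the adjusted p of Il2ra and Csf2rb was then 0.308 and 0.269. At an unadjusted limma p under 0.05 there were 2525 probe sets with the block, against 1775 without it. The unadjusted limma p of Csf2rb was 0.00209 with the block and 0.0159 without it, and that of Il2ra 0.00282 and 0.00256. The labels do not pair the samples by number. Deviations of same-numbered samples correlated at 0.256, 0.0547 and 0.302, and those of differently numbered samples at values from -0.42 to 0.248. Whether the numbers mark pairs was not tested. With 1 array left out Foxo1 ran from -2.26 to -1.97 and kept its call only without untreated sample 1. In those fits limma made 6 calls over all probe sets when untreated sample 1 was left out, 2 when tamoxifen sample 1 was, and 0 in the other cases, where at least 1360 had an unadjusted p under 0.05. Calls numbered 3 with median scaling, 12 with no further normalisation and with an intensity trend, 11 with a pseudocount of 1, 46 among bright probe sets only and 73 among averaged genes. Of all calls 65.0% were raised as reported, 66.7% with median scaling, 83.3% with no further normalisation and 70.0% with cyclic loess.

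Among bright probe sets only, list medians were 0.10 for partner chains, 0.0597 for ligands, 0.12 for JAK and STAT genes and 0.11 for outputs. The JAK and STAT median was 0.18 with a pseudocount of 1 and 0.10 with 64, and the output median was 0.10 with median scaling. With 1 array left out, medians ran from 0.0279 to 0.0754 for partner chains, -0.0200 to 0.0368 for ligands, 0.0753 to 0.16 for JAK and STAT genes, -0.0043 to 0.0882 for adaptors, 0.0417 to 0.12 for inhibitors and 0.0123 to 0.0868 for outputs. With probe sets averaged per gene and fewer features tested, 1 inhibitor (Ptpn6, limma adjusted p = 0.0256), 1 output (Pim2, 0.0383) and 2 pro-B markers (Cd79b, 0.0273, and Ebf1, 0.0366) passed. The cause of the other shifts was not tested. Without scanner files or detection calls, the dim Kit and Flt3 values cannot be set against background.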
